A study of Mus musculus with 6 samples.

Results

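The 9 genes described here, Six4, Eya1, Eya2, Dlx3, Dlx5, Gata3, Grhl2, Grhl3 and Trp63, are regulators of the surface ectoderm and of the sensory placodes that form within it. They were chosen by name, with earlier results of these data known, and are 9 of the 24062 genes counted. All 9 passed the filter on low counts and are among the 15187 genes tested. Polyadenylated RNA had been sequenced from whole mouse embryo heads at embryonic day 8.5, on a C57BL/6 background. The mutant embryos were Prdm15 tm1a-/-, the heterozygous ones Prdm15 tm1a+/- and the wild-type ones Prdm15 tm1a+/+, with 2 libraries per genotype. The tm1a allele is a knockout-first insertion in Prdm15, which encodes a PRDM zinc finger protein, and every cell of a mutant embryo carries it. The protocol mentions 2 heads per genotype and does not name litters, so the tests speak of the spread among these libraries, which may be technical.

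The surface ectoderm covers the head outside the neural plate. At the border with the neural plate, a horseshoe of ectoderm takes on placode competence, marked by homeodomain factors of the sine oculis family, to which Six4 belongs, and their EYA partners, and later gives the nasal, lens, otic and cranial ganglion placodes. DLX and GATA factors act in the non-neural ectoderm at and outside the border. Grainyhead-like factors maintain its epithelium and are needed for neural tube closure, and p63, encoded by Trp63, commits the ectoderm to stratified epidermis. Several of these genes are also active elsewhere in a head, Dlx5 in crest-derived arch tissue and Eya1 and Six4 in mesoderm, for example.

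Reads in genes numbered 29412227 to 40439234 per library. Prdm15 itself had 26.6 and 32.0 CPM (counts scaled to a fixed library size) in mutant heads, 28.3 and 31.8 CPM in heterozygous heads and 35.2 and 32.6 CPM in wild-type heads, and did not pass the test in mutant against wild type (log2 fold change -0.21 ± 0.12 SE, adjusted p = 0.221). Counts over the whole gene do not show how much transcript of an insertion allele is functional. Otx2, the gene in the study's title, had 42.5 and 24.9 CPM in mutant heads and 108.8 and 86.1 CPM in wild-type heads and fell (-1.53 ± 0.25, adjusted p = 0.00964). The count files attached to wild type 2 and mutant 1 bear each other's titles. Libraries are named here by the title in the file name, because the deposited RPKM column of the same title had its zeros at the same genes, with 0 mismatches, against 1646 for the attached assignment. Xist reads were 32299 to 47887 in both mutant libraries and wild type 2 and 8 to 11 in the other 3 libraries, so sex is not balanced over the genotypes.

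Of the 9 genes, 4 fell in mutant against wild-type heads: Eya1, Eya2, Dlx5 and Trp63. None rose, and 5 did not pass the test. Over all tested genes 30.6% were called, 13.6% lower and 17.1% higher. This balance depends on the setting: with upper-quartile size factors 2353 genes were higher and 2614 lower, and with 1 mutant or wild-type library left out 682 (without mutant 1) to 1157 (without wild type 2) were lower, against 2060. The median log2 fold change was -0.26 over the 9 genes and -0.02 over all tested genes. In 6 of the 9 both mutant libraries lay below both wild-type ones, as did 36.1% of all tested genes. In 1, Gata3, both lay above, as did 34.9%. Fewer cells of a type and less RNA per cell cannot be told apart in whole heads.

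**Figure D1:**
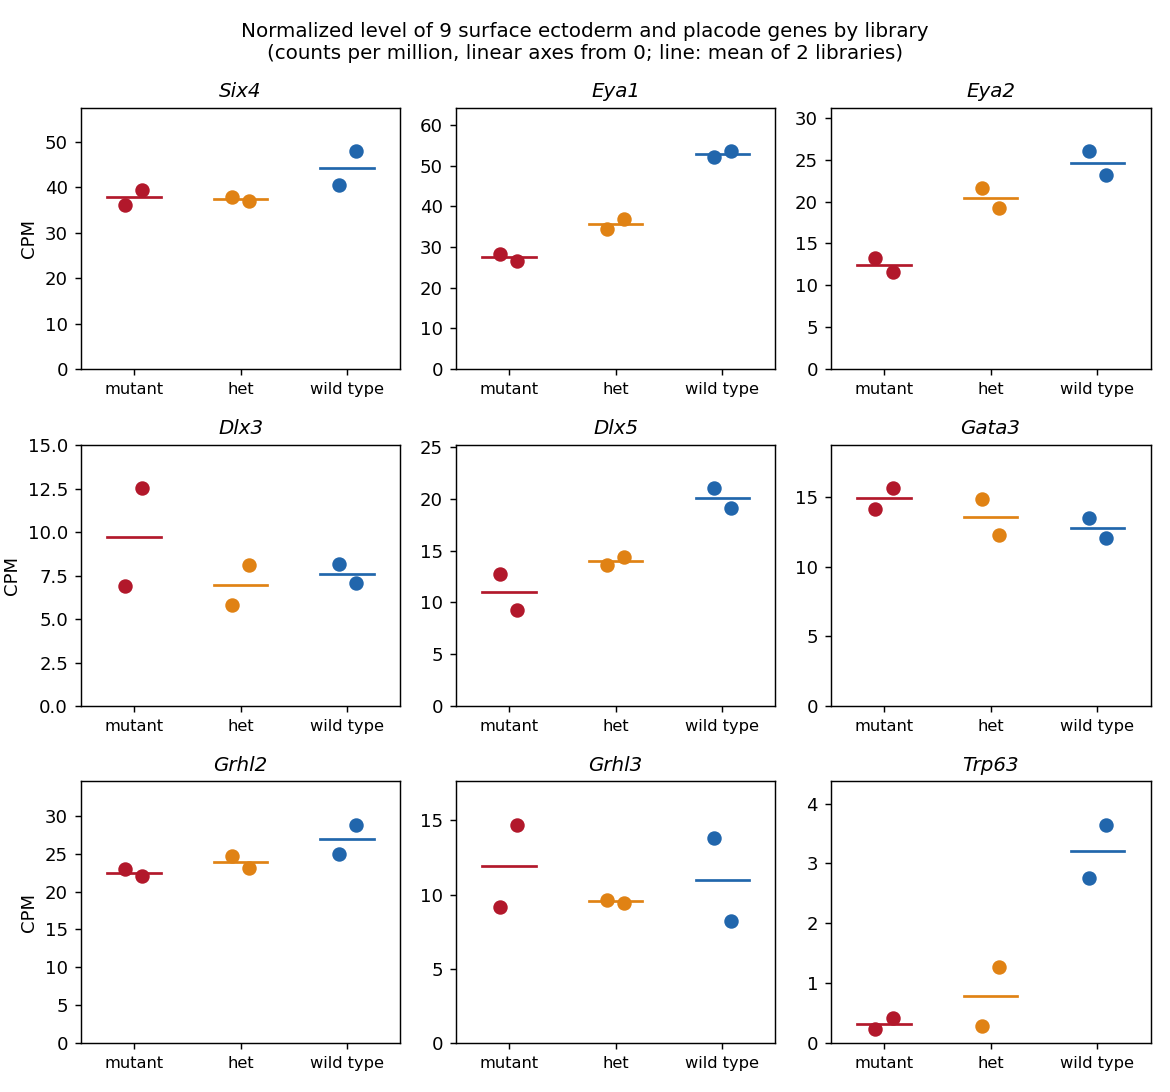
Normalized level of each of the 9 genes in CPM (linear axes from 0), with 1 point per library in mutant, heterozygous and wild-type heads and a line at the mean of the 2 libraries. The mutant points of Eya1, Eya2, Dlx5 and Trp63 lie below both wild-type points, while those of Dlx3 and Grhl3 straddle them.

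Levels were compared between genes as RPKM, which is per transcript length. In mutant heads Dlx5 had a mean of 7.79 ± 1.73 RPKM (SD, n = 2), followed by Six4 with 6.75 ± 0.46, Eya1 with 6.32 ± 0.25 and Eya2 with 5.03 ± 0.46 RPKM. In heterozygous heads Dlx5 had 9.93 ± 0.39 RPKM, Eya2 8.29 ± 0.70, Eya1 8.23 ± 0.37 and Six4 6.71 ± 0.11 RPKM. In wild-type heads Dlx5 again stood first with 14.3 ± 0.96 RPKM, ahead of Eya1 with 12.2 ± 0.23, Eya2 with 10.03 ± 0.84 and Six4 with 7.95 ± 0.93 RPKM. By their means these 4 were the highest of the 9 in each genotype. In wild-type heads the ranges of neighbours in this order overlapped only between Gata3 and Grhl3 and between Grhl3 and Dlx3. In heterozygous heads they overlapped only between Eya2 and Eya1. In mutant heads only Eya1 and Eya2, and Dlx3 and Trp63, were neighbours with separate ranges. Trp63 was last in every genotype, with 0.0604 ± 0.0225 RPKM in mutant, 0.146 ± 0.130 RPKM in heterozygous and 0.599 ± 0.116 RPKM in wild-type heads.

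Six4 lies on chromosome 12 (GRCm38, positions 73099609 to 73113456, minus strand). It encodes a homeodomain factor of the sine oculis family that works with EYA proteins. Six4 had 36.0 and 39.5 CPM in mutant heads, 37.7 and 37.0 CPM in heterozygous heads and 40.5 and 47.9 CPM in wild-type heads. Both wild-type libraries lay above the other 4, which overlapped each other. Mutant against wild type gave -0.23 ± 0.10 (adjusted p = 0.144), and Six4 was not called.

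The promoter table from RefSeq (GRCm38.p6), which spans 250 bases before to 50 after a gene's start, held windows for 3 of the 9 genes: Six4, Gata3 and Grhl3. The MEF3 motif, which proteins of this family bind, TCAGGTTTC, was searched on both strands and is in 141 of 32851 windows (0.429%). It is in 1 of the 2 Six4 windows, as its reverse complement on the gene's strand. The stretch is shown because Six4 is the member whose own family binds the motif, and capitals mark the match at 73113336 to 73113344.

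Six4 promoter, chr12:73113326-73113354, minus strand: tggcctggggGAAACCTGAtcggccagat

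The match is a description of the letters and no binding was measured. The grainyhead motif AACCGGTT (0.146% of windows) and the homeodomain motif TAATTA (5.29%) were in no window of the 3 genes. The AP-2 motif GCCNNNGGC (16.6%) was in that of Gata3.

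Eya1 and Eya2 encode transcriptional coactivators that are also phosphatases and are recruited to DNA by proteins of the Six4 family. Eya1 (chromosome 1, positions 14168954 to 14310235, minus strand) is required for otic and cranial ganglion development. Eya1 had 28.3 and 26.6 CPM in mutant heads, 34.4 and 36.8 CPM in heterozygous heads and 52.0 and 53.5 CPM in wild-type heads. The 3 genotypes did not overlap, and the heterozygous libraries lay between the others. In mutant heads Eya1 fell to 0.521 times the wild-type level (log2 fold change -0.94 ± 0.07, adjusted p = 0.0011).

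Eya2 (chromosome 2, positions 165595032 to 165771727, plus strand) is the paralog expressed across cranial placodes. Eya2 had 13.3 and 11.6 CPM in mutant heads, 21.6 and 19.2 CPM in heterozygous heads and 26.0 and 23.2 CPM in wild-type heads. Here too no library of one genotype crossed into another. Eya2 fell to 0.505 times the wild-type level in mutant heads (-0.99 ± 0.12, adjusted p = 0.00389). Both Eya genes were called in mutant against wild type under every alternative with libraries by title. With the 2 files as attached the values were 0 for Eya1 and -0.18 for Eya2, with adjusted p of 1 for both.

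Ratios of reads within a library do not depend on the scaling between libraries. For every read of Six4 there were 0.786 and 0.675 reads of Eya1 in mutant heads, 0.912 and 0.994 in heterozygous heads and 1.28 and 1.12 in wild-type heads. The genotypes did not overlap. The ratio of Eya2 to Six4 reads was 0.368 and 0.293 in mutant heads, 0.572 and 0.519 in heterozygous heads and 0.643 and 0.484 in wild-type heads, so that heterozygous and wild-type heads overlapped. With 2 libraries against 2, an exact two-sided permutation test of such a ratio cannot give a p below 0.333.

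Dlx3 and Dlx5 encode distal-less homeodomain factors, Dlx3 of surface ectoderm and its derivatives and Dlx5 of the border ectoderm, the otic and nasal placodes and the branchial arches. Dlx3 lies on chromosome 11 (positions 95120119 to 95125296, plus strand), 15.2 kb from Dlx4. Dlx5 lies on chromosome 6 (positions 6877805 to 6882085, minus strand), 9.24 kb from Dlx6. Their homeoboxes are shown, from GENCODE M21 transcripts, because the 2 genes belong to 1 family and differed in their values. Capitals mark the bases that differ.

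Dlx3 homeobox: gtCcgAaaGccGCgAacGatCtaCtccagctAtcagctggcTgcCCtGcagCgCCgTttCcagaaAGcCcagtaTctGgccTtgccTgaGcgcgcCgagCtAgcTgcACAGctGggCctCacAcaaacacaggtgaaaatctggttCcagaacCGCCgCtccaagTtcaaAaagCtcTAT

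Dlx5 homeobox: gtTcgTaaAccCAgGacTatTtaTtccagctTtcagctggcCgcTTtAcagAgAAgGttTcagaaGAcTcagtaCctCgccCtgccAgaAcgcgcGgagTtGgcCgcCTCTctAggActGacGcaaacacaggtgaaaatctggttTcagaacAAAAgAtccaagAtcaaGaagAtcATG

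The 2 homeoboxes differ at 51 of 180 bases (71.7% identity) and 7 of 60 residues, and the longest identical run is 23 bases. Neither gene shared a 50-base stretch with transcripts of another gene. Dlx5 had 12.8 and 9.27 CPM in mutant heads, 13.6 and 14.4 CPM in heterozygous heads and 21.05 and 19.2 CPM in wild-type heads. All 3 genotypes were separate, with wild type highest. Dlx5 fell to 0.550 times the wild-type level in mutant heads (-0.86 ± 0.17, adjusted p = 0.0148). The call was lost without wild type 1 (-0.78) and with an Xist term added to the fit (-0.79). These are nearly the same check, because within a genotype only the wild-type libraries differ in Xist. With the term, mutant heads are set against wild type 2.

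Dlx3 had 6.89 and 12.5 CPM in mutant heads, 5.83 and 8.11 CPM in heterozygous heads and 8.15 and 7.08 CPM in wild-type heads. The 2 mutant libraries spanned the whole wild-type range. Mutant against wild type gave 0.35 ± 0.32 (adjusted p = 0.442), and -0.16 without mutant 2. Reads of Dlx5 per read of Dlx3 were 1.86 and 0.739 in mutant heads, 2.33 and 1.78 in heterozygous heads and 2.58 and 2.71 in wild-type heads. Both wild-type values were the highest of the 6.

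Gata3, on chromosome 2 (positions 9857078 to 9890034, minus strand), encodes a zinc finger factor of non-neural ectoderm, otic placode and epidermis. Gata3 had 14.2 and 15.7 CPM in mutant heads, 14.9 and 12.3 CPM in heterozygous heads and 13.5 and 12.1 CPM in wild-type heads. Both mutant libraries lay above both wild-type ones, and the difference did not pass the test (0.22 ± 0.13, adjusted p = 0.261). Its exons overlap those of 9230102O04Rik by 77 bases on the same strand and of Gm13256 by 155 bases on the opposite strand, and 2.22% of its 50-base stretches occur in other genes' transcripts.

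Grhl2 and Grhl3 encode grainyhead-like factors of the surface ectoderm, both required in mouse for neural tube closure. Grhl2 (chromosome 15, positions 37233036 to 37363569, plus strand) had 22.99 and 22.01 CPM in mutant heads, 24.6 and 23.2 CPM in heterozygous heads and 24.99 and 28.8 CPM in wild-type heads. The genotypes were separate by narrow gaps, and mutant against wild type was not called (-0.26 ± 0.10, adjusted p = 0.0958). Grhl3 (chromosome 4, positions 135541888 to 135573630, minus strand) had 9.15 and 14.7 CPM in mutant heads, 9.66 and 9.42 CPM in heterozygous heads and 13.8 and 8.19 CPM in wild-type heads. The genotypes overlapped fully, and mutant against wild type gave 0.11 ± 0.31 (adjusted p = 0.812), -0.23 without wild type 2 and -0.28 without mutant 2.

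Trp63 lies on chromosome 16 (positions 25683763 to 25892102, plus strand), the chromosome of Prdm15, at a distance of 71.9 Mb. It has 2 classes of transcript with separate first coding exons. The TA class encodes a transactivation domain, and the shorter delta N class is the main one of epidermis. Their first 60 coding bases from GENCODE M21 are shown because counts per gene pool both classes. Capitals mark bases absent from the other class.

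Trp63 delta N start: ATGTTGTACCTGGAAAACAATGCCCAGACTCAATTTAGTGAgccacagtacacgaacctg

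Trp63 TA start: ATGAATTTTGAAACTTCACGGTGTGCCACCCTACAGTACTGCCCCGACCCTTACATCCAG

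The annotation has 4 transcripts of each class. Of their coding sequence, 41 bases are specific to the delta N class and 323 to the TA class, and the gene-level counts do not tell them apart. Trp63 had 9 and 12 reads in mutant heads, 9 and 38 in heterozygous heads and 114 and 128 in wild-type heads. In CPM these were 0.239 and 0.409 in mutant heads, 0.290 and 1.27 in heterozygous heads and 2.76 and 3.64 in wild-type heads. Both wild-type libraries stood above the other 4, and heterozygous 1 lay within the mutant range.

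Trp63 fell to 0.101 times the wild-type level in mutant heads (-3.31 ± 0.72, adjusted p = 0.0205). Per 100 reads of Grhl2 there were 1.04 and 1.86 reads of Trp63 in mutant heads, 1.18 and 5.499 in heterozygous heads and 11.04 and 12.6 in wild-type heads. The call rests on few reads and was lost without wild type 2 (adjusted p = 0.0522), without mutant 1 (0.115) and without mutant 2 (0.0729). With the 2 files as attached, Dlx5 gave -0.25 and Trp63 0.43 in mutant against wild type, and none of the 9 genes was called.

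The authors' deposited table lists for mutant against wild type a log2 fold change of -0.95 for Eya1 (false discovery rate 8.19e-08). Its rates stand beside a likelihood ratio score, so they are not the same measure as the quasi-likelihood adjusted p above. The same deposited table of the authors gives -0.99 for Eya2 (2.54e-05), -0.87 for Dlx5 (0.00295) and -3.31 for Trp63 (9.11e-05). In the authors' deposited table the other 5 genes have false discovery rates of 0.425 to 1.

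**Figure D2:**
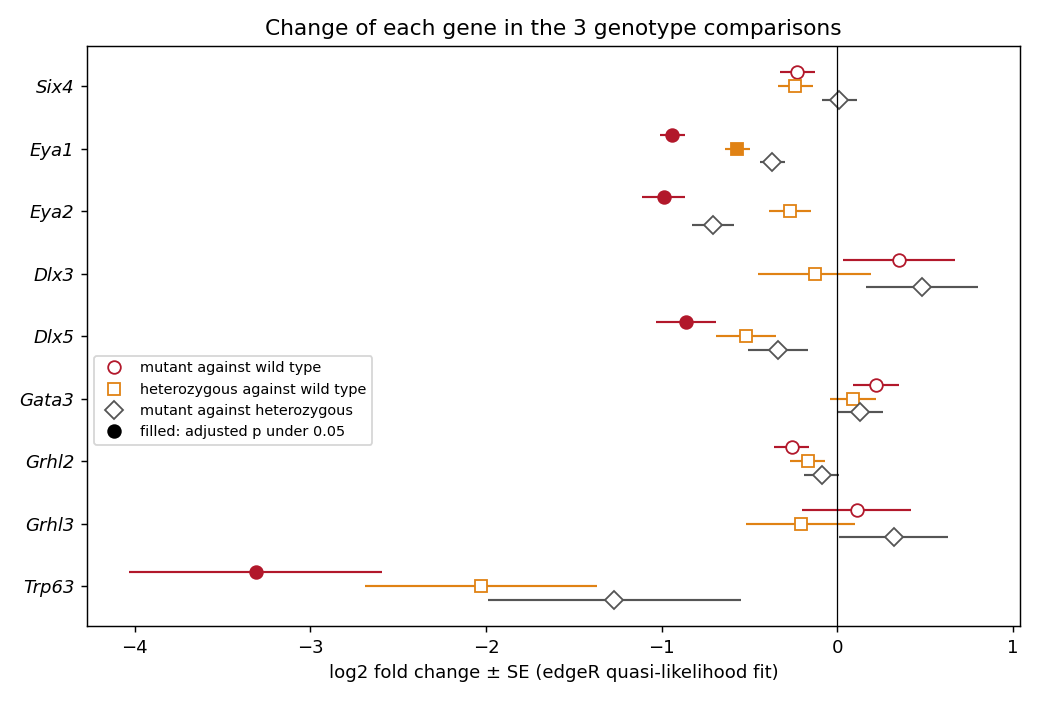
Log2 fold change of each gene in the 3 genotype comparisons, with bars of 1 SE from the edgeR quasi-likelihood fit and filled symbols for adjusted p under 0.05. Filled symbols stand at Eya1, Eya2, Dlx5 and Trp63 for mutant against wild type and at Eya1 for heterozygous against wild type.

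Between heterozygous and wild-type heads 1 of the 9 genes was called, Eya1, which fell (-0.57 ± 0.07, adjusted p = 0.0128). Of all tested genes 6.56% were called, 0.533% lower and 6.03% higher. Eya2 gave -0.27 ± 0.12 (adjusted p = 0.233), Dlx5 -0.52 ± 0.17 (0.134) and Trp63 -2.03 ± 0.66 (0.141). The remaining 5 genes gave between -0.24 for Six4 and 0.09 for Gata3. In 6 of the 9 both heterozygous libraries lay below both wild-type ones (27.6% of all tested genes), and in none both above (28.7%). The call of Eya1 was lost without heterozygous 1 (adjusted p = 0.0699) and with the Xist term (0.0569), while Trp63 was called without heterozygous 2 (-3.44, adjusted p = 0.0453). This comparison shares its wild-type libraries with the one above.

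In mutant against heterozygous heads edgeR's quasi-likelihood test called 0 of the 9 genes, and 0.435% of all tested genes, 0.362% lower and 0.0724% higher (55 and 11 genes). At an unadjusted p under 0.05 there were 3228 of the 15187 tested genes and 2 of the 9, Eya1 and Eya2. DESeq2 called the same 2 and 9.78% of the genes it tested, 699 higher and 614 lower. The likelihood ratio test of edgeR called Eya2 alone and 5.27% of all genes, 375 higher and 426 lower, and limma-voom called 0 of the 9 and 0.323%. Eya2 gave -0.71 ± 0.12 (adjusted p = 0.0767, and 0.000832 by DESeq2). Eya1 gave -0.37 ± 0.07 (adjusted p = 0.0928, and 0.00767 by DESeq2). In 4 of the 9, Eya1, Eya2, Dlx5 and Grhl2, both mutant libraries lay below both heterozygous ones (26.4% of all tested genes), and in none both above (27.6%). The libraries are those of the comparisons above. Both mutant libraries and neither heterozygous one have high Xist counts, so sex and genotype cannot be told apart in this comparison.

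The families of the 9 genes had 19 other tested members. In mutant against wild-type heads 5 fell, 3 rose and 11 did not pass the test, with a median of 0.06. Over all tested genes the median was -0.02, with 13.6% called lower and 17.1% higher.

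Six6 and Six3, homeodomain factors of eye field and forebrain, fell in mutant heads, with log2 fold changes of -5.09 ± 0.91 (adjusted p = 0.0117) for Six6 and -2.33 ± 0.56 (0.0275) for Six3. Six6 had 8 and 2 reads in mutant heads, 13 and 61 in heterozygous heads and 253 and 142 in wild-type heads. Its call was lost without mutant 1 (adjusted p = 0.0534) or mutant 2 (0.0632), and that of Six3 without wild type 1 (0.0881) or either heterozygous library (0.0528 and 0.0551). Six3 also missed the threshold on log2(RPKM + 0.1) (adjusted p = 0.077), on log2(RPKM + 1) (0.0585) and from the compared groups alone (0.0519). It did so too with the Xist term (-2.01), which is nearly the same check as leaving out wild type 1 (-1.99). Six5 (-0.52 ± 0.15, adjusted p = 0.0451) and Eya3 (-0.22 ± 0.06, 0.0436) passed narrowly. Both missed the threshold on log2(RPKM + 0.1) (adjusted p of 0.1 and 0.0714) and on log2(RPKM + 1) (0.0977 and 0.0688). They did so too with the Xist term (-0.46 and -0.18). Eya3 also missed it with RLE size factors (0.0508), by the likelihood ratio test (0.051), by limma-voom (0.0516) and from the compared groups alone (0.068). The adjusted p of Six5 was 0.0736 to 0.163 with any mutant or wild-type library left out, and that of Eya3 0.06 to 0.232 with any library left out. Six2 gave -0.28 (adjusted p = 0.134) and Eya4 -0.27 (0.238).

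The 3 paralogs that rose were Gata4 (4.79 ± 0.56, adjusted p = 0.00358), Gata5 (4.06 ± 0.58, 0.00628) and Gata6 (3.43 ± 0.39, 0.00329), factors of heart and endoderm. They also rose in heterozygous against wild-type heads, by 4.37, 3.63 and 2.93 on the log2 scale. Gata4 had 164.8 and 115.3 CPM in mutant heads, 114.9 and 94.8 CPM in heterozygous heads and 7.94 and 2.02 CPM in wild-type heads. Beside them, all 8 tested heart genes rose in mutant heads, and their summed level was 1540 and 845 CPM in mutant heads, 1444 and 2437 CPM in heterozygous heads and 192 and 43.3 CPM in wild-type heads. The part of heart or yolk sac tissue in the Gata values was not tested. Gata1 gave 0.65 and Gata2 0.43, and neither was called.

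Dlx6, the neighbour of Dlx5, gave -0.49 ± 0.27 (adjusted p = 0.212), Dlx2 of the arches and forebrain -1.49 ± 0.46 (0.0582), Dlx4 0.64 and Dlx1 0.06. None of these was called by the quasi-likelihood test. Dlx2 was called lower by DESeq2 (adjusted p = 0.00877), the likelihood ratio test (0.0169), limma-voom (0.0315), without the low-count filter (0.0439), from the compared groups alone (0.0227) and without either heterozygous library (0.0229 and 0.0243). Grhl1 gave 0.57 ± 0.32 (adjusted p = 0.225) and Trp53 0.10 ± 0.06 (0.281). Trp73, the p63 paralog, gave 3.64 ± 1.17 (adjusted p = 0.0627) from 1.01 and 1.36 CPM in mutant heads, 0.837 and 0.0335 CPM in heterozygous heads and 0.0968 and 0.0853 CPM in wild-type heads. Both mutant libraries lay above the other 4. It was called higher by DESeq2 (adjusted p = 0.0229), the likelihood ratio test (0.0122), from the compared groups alone (0.00836) and without either heterozygous library (0.0109 and 0.00977).

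Other regulators of the neural plate border and placodes, 22 of them tested, had a median of -0.68 in mutant against wild-type heads, with 10 lower, 3 higher and 9 not called. Of all tested genes 13.6% were lower and 17.1% higher. Tfap2a, the AP-2 factor of non-neural ectoderm and neural crest, had 36.9 and 26.9 CPM in mutant heads, 43.0 and 51.5 CPM in heterozygous heads and 68.0 and 63.5 CPM in wild-type heads. It fell in mutant heads (-1.04 ± 0.17, adjusted p = 0.00863). Pax8, an early otic placode gene, fell (-2.35 ± 0.41, adjusted p = 0.0109), and so did Foxi2, a forkhead gene of cranial ectoderm (-3.11 ± 0.56, 0.0122). Both calls were lost without mutant 1 (adjusted p of 0.0697 and 0.0705) or mutant 2 (0.0521 and 0.0679). Msx2, a BMP-induced homeobox gene, rose (0.89 ± 0.14, adjusted p = 0.00905), though not past the threshold without mutant 1 (0.0541). In heterozygous against wild-type heads and in mutant against heterozygous heads edgeR's quasi-likelihood test called 0 of the 22, with 6 and 11 at an unadjusted p under 0.05. Of the 15187 tested genes 3598 and 3228 had such a p. DESeq2 called 2 higher and 1 lower between heterozygous and wild-type heads, and 2 higher and 5 lower between mutant and heterozygous heads.

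Foxi2 had 1.996 and 1.81 CPM in mutant heads, 3.06 and 10.5 CPM in heterozygous heads and 16.5 and 16.3 CPM in wild-type heads. Pax8 had 6.15 and 7.15 CPM in mutant heads, 7.95 and 19.5 CPM in heterozygous heads and 36.8 and 30.9 CPM in wild-type heads. In both genes, as in Trp63, heterozygous 1 lay closer to the mutant libraries than heterozygous 2 did. Summed neural crest genes separated the 2 heterozygous libraries in the same order, with 202 and 177 CPM in mutant heads, 225 and 362 CPM in heterozygous heads and 502 and 582 CPM in wild-type heads. Of the 8 crest genes 5 fell in mutant heads, and of 8 neural plate genes 7. The neural plate sum was 432 and 459 CPM in mutant heads, 597 and 748 CPM in heterozygous heads and 866 and 819 CPM in wild-type heads. The part of these tissues in the values of the border genes was not tested.

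**Figure D3:**
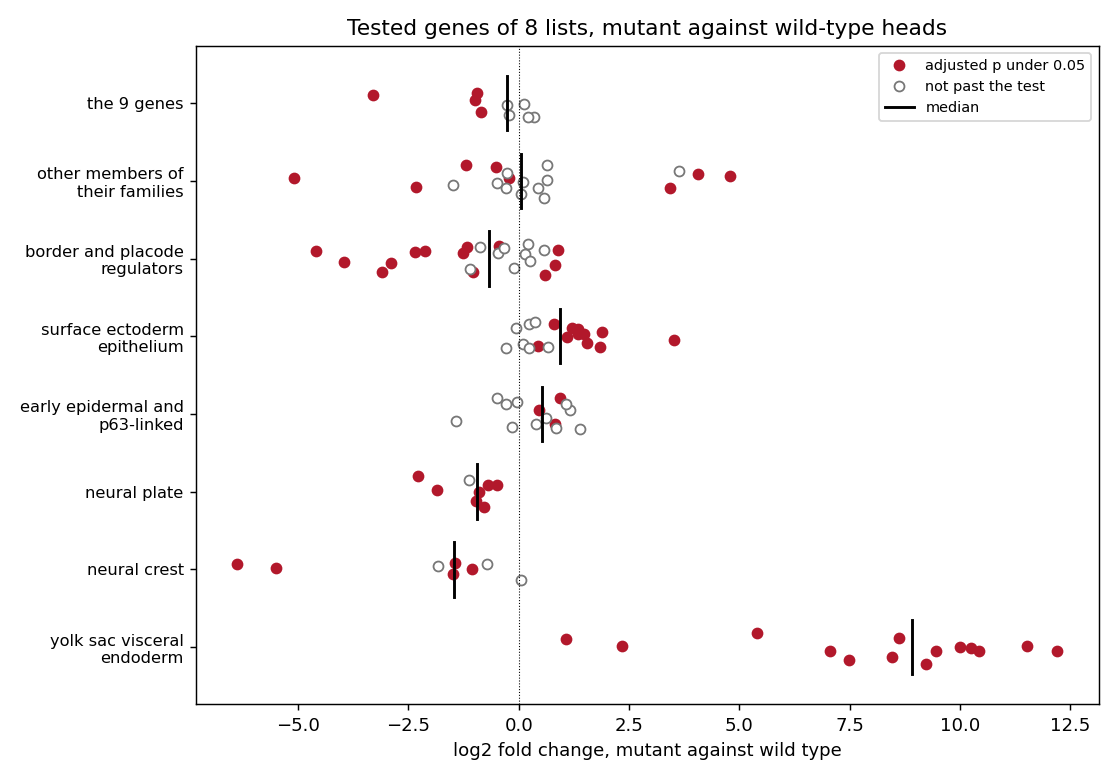
Log2 fold change of the tested genes of 8 lists in mutant against wild-type heads, with filled points for adjusted p under 0.05 and a bar at each list's median. The medians run from -1.46 for neural crest to 8.92 for yolk sac visceral endoderm, and that of the 9 genes is -0.26.

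Genes of the surface ectoderm epithelium went the other way. Of 18 tested, 11 rose in mutant against wild-type heads, 0 fell and 7 did not pass, with a median of 0.94. Of all tested genes 17.1% were higher and 13.6% lower. The tight junction genes Cldn7 (1.55 ± 0.09, adjusted p = 0.000548) and Cldn6 (1.34 ± 0.09, 0.000768) and the simple keratin gene Krt18 (1.88 ± 0.15, 0.0012) rose. Cldn7 had 43.5 and 41.5 CPM in mutant heads, 27.2 and 23.9 CPM in heterozygous heads and 14.2 and 14.8 CPM in wild-type heads, and the genotypes did not overlap. The list's sum was 1806 and 1663 CPM in mutant heads, 1328 and 1061 CPM in heterozygous heads and 717 and 742 CPM in wild-type heads. In heterozygous against wild-type heads 7 of the 18 rose, and 6.03% of all tested genes. In mutant against heterozygous heads edgeR's quasi-likelihood test called 1 higher, Cldn7, with 9 at an unadjusted p under 0.05. Of the 15187 tested genes 3228 had such a p. There DESeq2 and the likelihood ratio test each called 6 higher, and limma-voom 1.

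Reads of Krt8, the partner of Krt18, per read of Grhl2 were 23.3 and 18.2 in mutant heads, 13.2 and 10.03 in heterozygous heads and 5.21 and 4.48 in wild-type heads, without overlap. Epcam, a surface protein of embryonic epithelia, gave 0.24 ± 0.12 (adjusted p = 0.173) and the epithelial splicing factor gene Esrp1 0.10 ± 0.09 (0.441), chosen here after their values were seen.

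Many of these epithelial genes are also expressed in visceral endoderm, the epithelium of the yolk sac. All 14 yolk sac visceral endoderm genes rose in mutant against wild-type heads, with a median of 8.92. Their summed level was 5998 and 5003 CPM in mutant heads, 3470 and 2575 CPM in heterozygous heads and 297 and 299 CPM in wild-type heads. Its member Spp2 had 1180 reads in mutant, 251 in heterozygous and 0 in wild-type heads, at least 431-fold higher in mutant heads against a floor of 3 reads over the wild-type group. With Spp2 at this bound the list's median was 8.69. The part of this tissue in the epithelial values was not tested.

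Early epidermal and p63-linked genes, 14 of them tested, had a median of 0.53 in mutant against wild-type heads, with 3 higher, 0 lower and 11 not called. Of all tested genes 17.1% were higher and 13.6% lower. DESeq2 called 4 of the 14 higher and 1 lower. Dsp, the desmosomal plaque gene, rose (0.94 ± 0.06, adjusted p = 0.000746). So did Fras1, a basement membrane gene (0.46 ± 0.09, 0.0167), and Pkp3, a desmosomal plakophilin (0.82 ± 0.17, 0.0181). Fras1 was not called without wild type 2 (adjusted p = 0.0621) or mutant 1 (0.0677), nor Pkp3 without wild type 1 (0.0816), mutant 1 (0.0966) or mutant 2 (0.0599). Itgb4, a hemidesmosome integrin, gave 1.15 ± 0.38 (adjusted p = 0.066). It was called higher by the likelihood ratio test (adjusted p = 0.0465), DESeq2 (0.0352) and limma-voom (0.0431). The list's sum was 304 and 292 CPM in mutant heads, 259 and 273 in heterozygous heads and 204 and 217 in wild-type heads. The genotypes did not overlap. The sum mostly follows Dsp and Fras1, with 10792 and 5507 reads in mutant heads, where no other gene of the list passed 1158. The part of heart or yolk sac tissue in these values was not tested. In heterozygous against wild-type heads Dsp alone rose, where 6.03% of all tested genes did. In mutant against heterozygous heads edgeR's quasi-likelihood test called 0 of the 14, with 4 at an unadjusted p under 0.05. Of the 15187 tested genes 3228 had such a p. DESeq2 called 1 of the list higher.

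**Figure D4:**
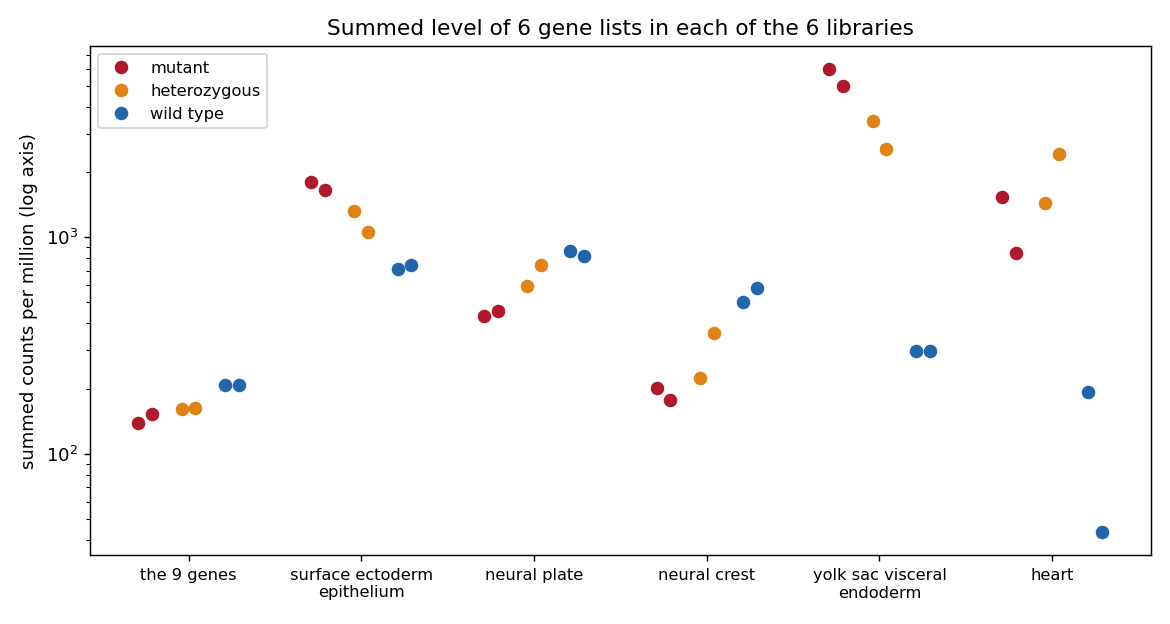
Summed level of 6 gene lists in each library, in CPM on a log axis, for mutant, heterozygous and wild-type heads. The 9 genes sum to 138 and 152 CPM in mutant, 162 and 163 CPM in heterozygous and 207 CPM in both wild-type libraries, while yolk sac genes run from 297 CPM in a wild-type to 5998 CPM in a mutant library.

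Summed over the 9 genes, the level was 138 and 152 CPM in mutant heads, 162 and 163 CPM in heterozygous heads and 207 and 207 CPM in wild-type heads. The genotypes did not overlap. Eya1 differed most in CPM, with means of 27.5 CPM in mutant and 52.8 CPM in wild-type heads. Gata3, Dlx3 and Grhl3 had higher means in mutant than in wild-type heads. Other tissues varied between libraries of 1 genotype as well. The decidual sum was 67.1 and 156 CPM in mutant heads, 51.6 and 61.0 CPM in heterozygous heads and 30.0 and 423 CPM in wild-type heads, with wild type 2 highest. Of its 8 genes edgeR's quasi-likelihood test called 0 in mutant against wild type, with 0 at an unadjusted p under 0.05 and 0 by DESeq2. Of 8 tested trophoblast genes 1 rose, Hand1, and 1 fell, Elf5, with a median of -2.03. Hand1, which is also a gene of heart and allantois, had 234 and 144 CPM of library totals in mutant heads, 89.6 and 73.8 CPM in heterozygous heads and 18.2 and 24.7 CPM in wild-type heads. The other 11 genes of the list summed to 11.1 and 17.4 CPM in mutant heads, 8.61 and 11.5 CPM in heterozygous heads and 4.95 and 68.8 CPM in wild-type heads, so that wild type 2 was again highest. The trophoblast marker Prl3b1 had 0 reads in mutant and heterozygous heads, and Tpbpa 0 in heterozygous heads.

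All 3 tested genes of amnion and allantois rose in mutant against wild-type heads, and their list summed to 140 and 88.8 CPM in mutant heads, 83.1 and 98.3 CPM in heterozygous heads and 33.9 and 22.045 CPM in wild-type heads. Its marker Hoxa13 had 8 reads in mutant, 1 in heterozygous and 0 in wild-type heads. Erythroid genes, of which 1 of 6 fell, summed to 29.6 and 11.05 CPM in mutant heads, 5.22 and 235 CPM in heterozygous heads and 168 and 247 CPM in wild-type heads. Heterozygous 2 thus lay with the wild-type libraries and heterozygous 1 below the mutant ones. Of 6 tested genes of cranial and pharyngeal mesoderm 4 rose, with a list sum of 175 and 201 CPM in mutant heads, 175 and 166 CPM in heterozygous heads and 134 and 139 CPM in wild-type heads. Of 6 tested somite genes 2 rose and 1 fell, with 64.4 and 132 CPM in mutant heads, 46.1 and 66.9 CPM in heterozygous heads and 44.0 and 11.5 CPM in wild-type heads. Both lists were lowest in wild-type libraries. Of 8 pharyngeal and foregut endoderm genes 3 rose and 2 fell, with 95.7 and 109.7 CPM in mutant heads, 96.4 and 87.0 CPM in heterozygous heads and 81.3 and 97.6 CPM in wild-type heads. Endothelial genes, of which 1 of 6 rose, summed to 357 and 319 CPM in mutant heads, 287 and 321 CPM in heterozygous heads and 219 and 314 CPM in wild-type heads. The part of these tissues in the values of the 9 genes was not tested. The shares to set beside these list counts are 17.1% of all tested genes higher and 13.6% lower.

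The tested genes whose profiles over the 6 libraries were nearest to each of the 9 were found among 10868 genes with a mean of at least 5 CPM, by the root mean square difference of centred log2 CPM. For Eya1 it was Mkrn3, an imprinted ring finger gene, at 0.0398, and next Fam188b at 0.0700. For Eya2 it was Gprin1 at 0.0519 and next 9930014A18Rik at 0.0565. For Dlx5 it was the zinc finger gene Sall2 at 0.0859 and next Prr7 at 0.0950. For Trp63 it was Cyp26b1, which encodes a retinoic acid hydroxylase, at 0.181, and next Elfn1 at 0.235, where the spread of Trp63 itself was 1.44. For the 5 genes that were not called, the nearest distance ran from 0.0229 (Grhl2 and Dip2c) to 0.161 (Grhl3 and Gbx2). Distances are to be read beside each gene's own spread. This was 0.389 for Eya1, 0.424 for Eya2, 0.388 for Dlx5, 0.124 for Grhl2 and 0.313 for Grhl3.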

How the data were processed

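RNA libraries were stranded and read from both ends, per the labels' protocols. The submitters' processing notes name HTSeq 0.6.1p2, TopHat2 2.0.11, edgeR 3.8.6, Trim Galore 0.4.0, cutadapt 1.8 and the build mm10, without an order of steps. The strand setting of the counter is not given in the sources used here. Each library has a file of raw gene counts, as the authors deposited it. A table for the series, also deposited, holds RPKM per library, and the authors' log2 fold changes, likelihood ratio score, p-values and false discovery rates. Lines that name no gene stayed out of library sizes and tests: 8.93% to 10.5% of read pairs had no feature, 1.04% to 1.08% were ambiguous, and for 12.7% to 14.5% the alignment was not unique.

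The test was edgeR's quasi-likelihood F-test (edgeR 4.0.16, R 4.3.3) with TMM and filterByExpr. One fit held the 6 libraries, which left 3 residual degrees of freedom, and the common biological coefficient of variation was 0.182. Every adjusted p without another tool's name is from it, by Benjamini-Hochberg over 15187 genes with a threshold of 0.05. Values after ± are SE for log2 fold changes and SD for levels. CPM of single genes use TMM library sizes, and sums over lists use library totals. Replicate libraries correlated across genes with Spearman coefficients of 0.986 to 0.993. Alternatives were other size factors, no filter, the likelihood ratio test, DESeq2 1.42.0, limma-voom and limma on log2(RPKM + 0.1) and log2(RPKM + 1) (limma 3.58.1), a term for Xist (over 1000 reads), each library left out, the compared groups alone, and the exchanged count files as attached.

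The 9 genes, the lists and the file assignment were chosen with earlier results of these data known. Named genes were the 9, all tested paralogs, the 4 of each gene list with the smallest adjusted p in mutant against wild type, Prdm15 and Otx2; for likeness, the 2 nearest profiles of each called gene. Genes under this rule that are not reported here still count in list totals. For tissue lists, sums, counts and markers at 0 are given. Gene positions and transcripts are those of GENCODE M21 (GRCm38, which is mm10).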

Additional observations from a re-analysis of the deposited data

How the results depend on the processing

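In mutant against wild-type heads 4654 genes were called, against 3056 on log2(RPKM + 0.1), 2500 with the Xist term, 1997 to 4265 when 1 library was left out and 0 with the files as attached, where 318 had an unadjusted p under 0.05. Of the 9 genes 4 were called, 3 to 4 with a library left out and 0 as attached. In heterozygous against wild-type heads 997 genes were called, against 1579 by likelihood ratio, 1890 by DESeq2, 219 on log2(RPKM + 0.1), 167 on log2(RPKM + 1), 516 with the Xist term, 313 to 748 with a library left out and 0 as attached (48 unadjusted). Of the 9, 1 was called, 0 to 2 with a library left out, and 0 on log2(RPKM + 1), with the Xist term and as attached. In mutant against heterozygous heads 66 genes were called, against 182 without a filter, 801 by likelihood ratio, 1313 by DESeq2, 16 on log2(RPKM + 0.1), 24 on log2(RPKM + 1), 4 with the Xist term, 106 from the 2 groups alone, 11 to 81 with a library left out and 0 as attached (422 unadjusted). Of the 9, 0 were called, 1 by likelihood ratio, 2 by DESeq2 and 0 to 0 with a library left out. The causes were not tested.

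Log2 fold changes that turned sign with the files as attached were, in mutant against wild type, Six4 0.19, Grhl2 0.08, Grhl3 -0.0051, Trp63 0.43, Prdm15 0.07, Dlx2 0.51, Gata4 -0.56, Gata5 -0.64, Gata6 -0.33, Grhl1 -0.30, Trp53 -0.05, Msx2 -0.27, Cldn7 -0.04, Krt18 -0.20, Dsp -0.06, Fras1 -0.18, Pkp3 -0.04 and Itgb4 -0.12. In heterozygous against wild type they were Eya2 0.05 and Gata3 -0.02, and in mutant against heterozygous Eya1 0.17, Dlx5 0.02, Grhl2 0.09 and Trp63 1.38. Elsewhere only uncalled values turned. Six4 in mutant against heterozygous gave -0.0048 with upper-quartile factors and -0.23 with the Xist term. In mutant against wild type Gata2 gave -0.07 with the Xist term and Dlx1 -0.08 by limma-voom. With 1 library left out, values that turned sign ran, in mutant against wild type, from -0.16 to 0.72 for Dlx3, -0.28 to 0.55 for Grhl3, -0.72 to 0.59 for Dlx1, -0.36 to 1.27 for Dlx4 and -0.06 to 1.16 for Gata2, which was called without wild type 2. In heterozygous against wild type they ran from -0.38 to 0.09 for Dlx3, -0.05 to 0.22 for Gata3 and -0.54 to 0.22 for Grhl3. In mutant against heterozygous they ran from -0.06 to 0.08 for Six4, -0.03 to 0.85 for Dlx3, -0.0034 to 0.27 for Gata3, -0.07 to 0.62 for Grhl3 and -1.99 to 0.14 for Trp63.

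No paired analysis was possible because the labels give no batch, litter or pairing. Where a library was left out, the lone library of its group was assumed to vary like the others. Six4 and Grhl2 were not called with 2 libraries per genotype, which does not show that they are equal between genotypes. The spread in this test was estimated from the fit of all 6 libraries. Trp63 rests on 9 to 128 reads per library. Sex and genotype are fully confounded between mutant and heterozygous heads, since both mutant libraries and no heterozygous one have high Xist counts. They are partly confounded in the comparisons with wild type. Within a genotype only the wild-type libraries differ in Xist, so the Xist term rests on these alone. It is close to leaving out wild type 1 in mutant against wild type, and wild type 2 in heterozygous against wild type.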
